A study of Mus musculus with 8 samples.

Results

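The 134 genes described here encode the pore-forming and accessory subunits of ion channels that carry sodium, calcium or potassium. They are the protein-coding genes of the GRCm38 mouse genome whose symbol starts with Kcn or Cacn, or consists of Scn, digits and then a or b, and they make up 134 of 21938 protein-coding genes. By symbol they fall into 10 sodium channel alpha subunits, 4 sodium channel beta subunits, 10 calcium channel alpha1 subunits, 4 alpha2delta, 4 beta and 8 gamma subunits, 40 voltage-gated potassium channels (Kv), 12 Kv accessory subunits, 12 potassium channels opened by calcium or sodium with their subunits, 15 inward rectifiers, 14 K2P leak channels and Kcnrg. The rule therefore also takes in channels that voltage does not gate, such as the inward rectifiers and K2P channels. Sodium channels drive the upstroke of the action potential, Kv channels end it, and calcium channels turn depolarization into calcium entry and transmitter release. Inward rectifiers and K2P channels set the resting potential, and in the brain Kcnj10 and Kcnj16 are best known from glia. Neural progenitors of the embryonic ventricular zone do not fire action potentials, and channel genes are switched on in steps as neurons mature.

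Accessibility was measured by single-nucleus ATAC-seq in the cortex (CTX) and the medial, lateral and caudal ganglionic eminences (MGE, LGE and CGE, jointly GE) of wild-type (WT) mouse embryos. Each of the 4 regions had 2 samples with no treatment, all of embryonic day E12.5 except CTX replicate 2, which was of E14.5. The difference between the CTX samples therefore cannot be told apart from a difference in age. The labels do not say how many embryos entered a sample, so p-values measure the spread between samples, which may be technical.

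The samples held 3465 to 6845 nuclei with 77387940 to 138873845 counts in peaks, and 15 to 56 barcodes were shared by any pair of samples. Peaks had been called separately in each sample, which gave 926 to 1703 peaks over the channel genes with 0.64% to 0.81% of all counts. The CTX samples stood apart from each other. Nuclei were clustered on regions that overlap no channel gene and named by fixed marker genes, and 95.28% of the nuclei of CTX replicate 1 were glutamatergic-like, against 10.82% of CTX replicate 2, where 84.13% lay in clusters that met no name. Matrix entries with an odd count made up 9.54% to 10.42% of entries in replicate 1 samples and 5.17% to 5.85% in replicate 2 samples, so differences between CTX and GE are also given within each replicate number. The SD of the log2 ratio between the samples of a pair was 0.913 in CTX and 0.336 to 0.435 in the eminences. In each GE sample 36.03% to 56.76% of nuclei were progenitor-like and 31.98% to 58.35% GABAergic-like. The GABAergic markers summed at promoters to 803.8 and 964.3 CPM in CTX and to 1241 to 4272 CPM in GE, with 6 of 9 called lower in CTX, namely Dlx2, Dlx6, Gad1, Gad2, Lhx6 and Slc32a1. None of the GABAergic-like or progenitor-like shares in CTX exceeded 3.29%. The progenitor markers, however, summed at promoters to 1576 and 2239 CPM in CTX and to 1555 to 2740 CPM in GE, with 0 of 9 called. The progenitor-like share in CTX is therefore not a count of its progenitors. A difference between CTX and GE in these sums thus cannot be told apart from a difference in which cell classes each sample held.

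Most channel genes had an accessible promoter in all 4 regions. A promoter peak was a peak overlapping 1000 bp on either side of a start site, and the remaining peaks over the gene body or 2000 bp upstream are called other peaks. Of the 134 genes, 112 had a promoter peak in all 8 samples and 97 had another peak in all 8. Cacna1f, Cacng1, Kcnj1, Kcnj14, Kcnk18, Kcnmb3, Kcnrg, Kcnv2 and Scn4a had no promoter peak in any sample. Cacna1f is known as a calcium channel of the retina and Cacng1 and Scn4a encode subunits of skeletal muscle channels. Levels are given as CPM, counts scaled to a common total over the promoter (or other) peaks of all genes after TMM scaling. A wide peak that reaches a promoter adds all its counts to the promoter sum, so that a peak split in some samples moves counts between the sums.

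Per kilobase of peak, the scale on which genes can be compared, Kcnn2 had the most accessible promoter, with 36.0 ± 2.90 CPM per kb (SD, n = 8). Kcnn2 encodes a small-conductance calcium-activated potassium channel. It was followed by Cacng7 with 34.8 ± 2.70 and by the inward rectifier Kcnj2 with 34.0 ± 2.83 CPM per kb, and these neighbours differed by less than their SD. Kcnk7 and Kcne1 stood lowest of the 112 genes, with 4.12 ± 0.974 and 4.72 ± 0.941 CPM per kb. The sum over all channel promoters was highest in CTX replicate 1 (5929 CPM), lowest in CTX replicate 2 (4427 CPM), and ran from 4889 to 5799 CPM in GE. CTX replicate 2 was the lowest of the 8 samples in 8 of 11 subfamilies, and the pan-neuronal markers were lowest in it as well, at 878.5 CPM against 975.7 to 1151 in GE and 1135 in CTX replicate 1. The part of neuronal content in these sums was not tested.

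Within the eminences, GABAergic-like nuclei were compared with progenitor-like nuclei of the same sample, in the same peaks, with the sample as a block (edgeR quasi-likelihood test). This comparison asks how channel genes differ between nuclei of the ventral forebrain named by progenitor markers and by GABAergic markers. Cell division was not measured, and the main progenitor-like cluster of MGE raised 5 progenitor and 3 GABAergic markers. Of 118 channel promoters tested, 79 (66.9%) differed between the classes, 54 (45.8%) higher in GABAergic-like nuclei and 25 (21.2%) lower. Of all promoters tested, 60.9% were called, 32.0% higher and 28.9% lower, so the share called among channel genes lay near that of all genes while the split between directions did not. The median log2 fold change was 0.13 for channel promoters and 0.02 for all promoters. At a fold of 2 or more, 5 channel promoters (4.24%) were called higher against 1.05% of all, and 2 (1.69%) were called lower against 2.65%. Outside promoters 63 of 111 genes (56.8%) were called, 43 (38.7%) higher and 20 lower, against 50.4%, 24.7% and 25.7% of all genes. At a fold of 2 or more the shares there lay near those of all genes. There 6 channel genes (5.41%) were called higher against 4.85% of all, and 8 (7.21%) lower against 8.11%. The classes were named from the same nuclei, so the p-values speak to the spread over the 6 samples and not to the classes themselves. Median counts per nucleus were 12020 to 14292 in GABAergic-like and 16529 to 26008 in progenitor-like nuclei, no doublet caller was run, and the part of either in the folds was not tested. In the same comparison 8 of 9 pan-neuronal marker promoters were higher in GABAergic-like nuclei, with a median log2 fold change of 0.52. Markers of other cell types moved too: 6 of 7 mural or mesenchymal promoters were lower (median -0.56), of 8 glutamatergic promoters 4 were lower and 1 higher (median -0.17), of 4 endothelial promoters 1 was lower and 2 higher, of 4 microglial promoters 2 were lower and 2 higher, and both erythroid promoters tested were lower. Their part in the channel values was not tested. With clusters cut more finely, at a Leiden resolution of 1.0, the progenitor-like nuclei of MGE numbered 64 and 36 in place of 3461 and 1294, and 58.28% and 43.69% of MGE nuclei met no name. There 73 of 118 channel promoters (61.9%) were called, 54 higher and 19 lower, against 49.0% of all (25.6% higher, 23.4% lower), and the calls given here for the promoters of Cacna1d, Kcnd2, Cacna2d4 and Kcne2 were lost.

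**Figure D1:**
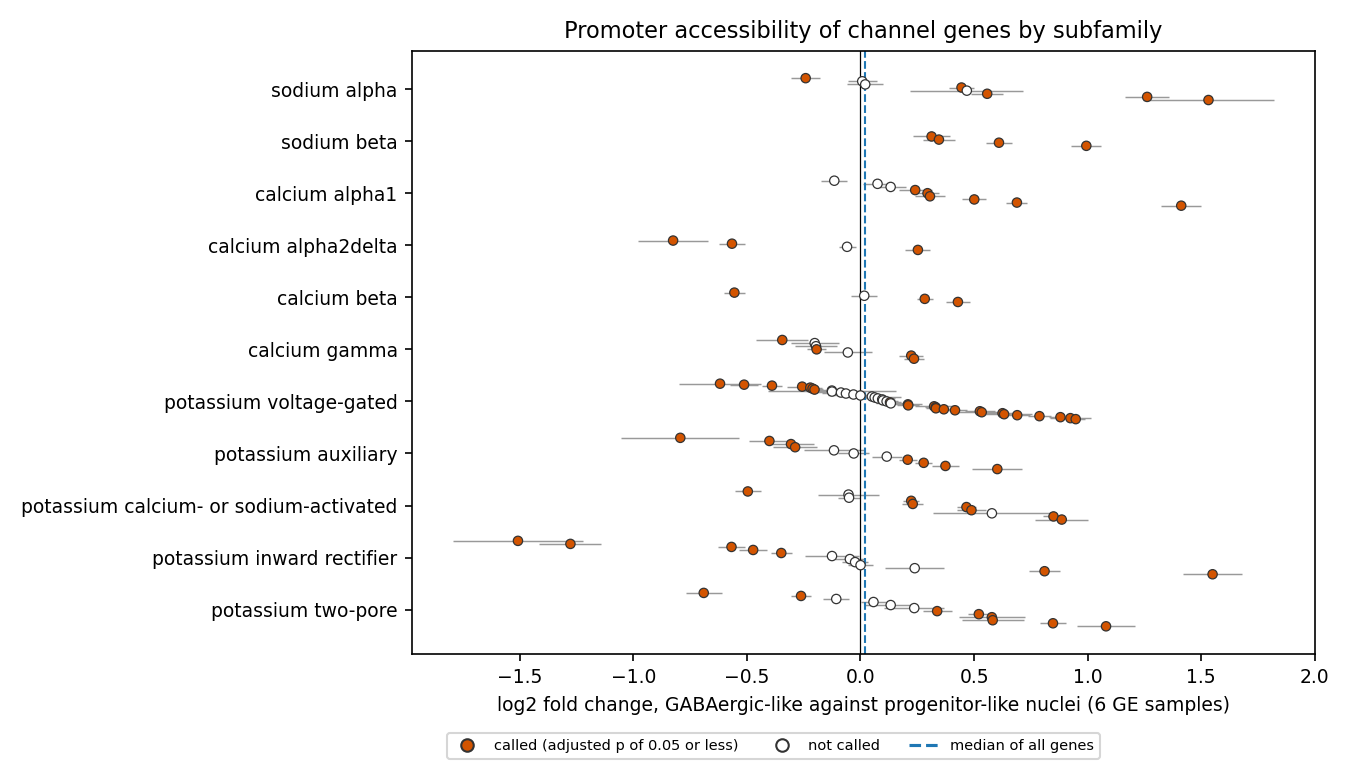
Log2 fold change of promoter accessibility, GABAergic-like against progenitor-like nuclei of the 6 GE samples, for each channel gene tested (points), by subfamily, with the standard error as bars. Filled points were called, and the dashed line is the median of all genes, 0.02. All 4 sodium channel beta subunits lie to the right. The inward rectifiers reach furthest to both sides, from -1.51 for Kcnj13, a gene of few counts, to 1.55 for Kcnj12.

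The counts by subfamily below rest on few genes and stand beside 60.9% of all promoters called, 32.0% higher and 28.9% lower. Among sodium channel alpha subunits, 4 of 8 promoters rose in GABAergic-like nuclei and 1 fell. Scn3a, the alpha subunit known for its high level in the embryonic brain, had 11.4 to 20.9 CPM (median 17.4) in GABAergic-like and 5.66 to 7.73 CPM (median 6.77) in progenitor-like nuclei. The ranges did not overlap, and the log2 fold change was 1.26 ± 0.10 (SE, adjusted p 2.443e-07). The other peaks of Scn3a moved the same way, with 148 ± 49.6 against 52.0 ± 8.79 CPM (SD, n = 6) and a log2 fold change of 1.40 ± 0.15. Scn3a was among the 10 leading genes of a GABAergic-like cluster, which is part of the class compared here, so this repeats the same counts. Its regions were not used to build the clusters. Scn2a and Scn9a, a neuronal subunit of unmyelinated axons and one of sensory neurons, rose by less, with promoter log2 fold changes of 0.44 ± 0.05 and 0.56 ± 0.07. Scn10a had the largest fold of the subfamily, 1.53 ± 0.29, but at 0 to 7.23 CPM, with no counts in either class of MGE replicate 1.

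The promoters of Scn1a and Scn8a, the main alpha subunits of the adult brain, did not pass the test. Scn1a had 27.2 ± 6.89 CPM in GABAergic-like and 26.8 ± 6.03 in progenitor-like nuclei, a log2 fold change of 0.02 ± 0.08 (adjusted p 0.834). Scn8a had 64.6 to 98.7 CPM in GABAergic-like and 52.4 to 97.7 CPM in progenitor-like nuclei, a log2 fold change of 0.01 ± 0.06 (adjusted p 0.928). All 4 beta subunits, which modulate gating and adhesion, rose at their promoters. Scn3b had 45.1 to 86.6 CPM in GABAergic-like and 36.9 to 50.4 CPM in progenitor-like nuclei, ranges that overlapped, and a log2 fold change of 0.61 ± 0.06.

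Of 9 calcium channel alpha1 promoters 6 rose and none fell, with a further 3 not called. Cacna1i, a low-voltage-activated (T-type) channel, had 12.4 to 36.8 CPM in GABAergic-like and 3.99 to 14.4 CPM in progenitor-like nuclei. These ranges overlapped, but each of the 6 samples was higher in GABAergic-like nuclei, and the log2 fold change was 1.41 ± 0.09. Cacna1b, the N-type channel of presynaptic terminals, had 88.4 to 120 CPM against 59.2 to 76.1 and a log2 fold change of 0.69 ± 0.05. The L-type genes Cacna1c and Cacna1d rose by 0.50 ± 0.05 and 0.24 ± 0.07 on the log2 scale, and the P/Q-type gene Cacna1a rose by 0.30 ± 0.05. Cacna1e and Cacna1g had log2 fold changes of 0.13 ± 0.07 and -0.12 ± 0.06 at the promoter, not called, while their other peaks rose by 0.22 ± 0.06 and 0.65 ± 0.07. The accessory subunits were mixed: among 4 alpha2delta genes 1 rose and 2 fell, among 4 beta genes 2 rose and 1 fell, and among 7 gamma genes 2 rose and 2 fell.

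Cacna2d1 and Cacna2d3, alpha2delta subunits that carry channels to the membrane, differed from each other. The promoter of Cacna2d1 had 42.8 to 58.5 CPM in GABAergic-like and 64.4 to 90.0 CPM in progenitor-like nuclei, and fell by 0.57 on the log2 scale (SE 0.06). Its other peaks fell by 0.56. For Cacna2d3 the promoter had 78.5 ± 7.51 against 81.8 ± 6.28 CPM, a log2 fold change of -0.06 ± 0.04 (adjusted p 0.187), while its other peaks rose by 0.65 ± 0.05, with 867 ± 182 against 531 ± 82.9 CPM. Cacng2, which encodes the AMPA receptor partner stargazin, showed the same split, with a promoter log2 fold change of -0.06 ± 0.10 and 0.44 ± 0.07 at other peaks.

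Among 37 Kv promoters 17 rose and 7 fell. Kcnq3, a subunit of the M-current that holds neurons below threshold, had a log2 fold change of 0.13 ± 0.05 (adjusted p 0.0343), which was lost without LGE replicate 1, LGE replicate 2 or CGE replicate 1. Kcnc1, a fast channel of fast-spiking neurons, had 65.3 to 91.5 CPM in GABAergic-like and 40.4 to 51.8 CPM in progenitor-like nuclei at its promoter. These ranges did not overlap, and the log2 fold change was 0.69 ± 0.05. Its other peaks fell by 0.29 (SE 0.10, adjusted p 0.0391), at 87.4 ± 13.6 against 106 ± 25.6 CPM, but 4 of 11 other settings kept this call, and it was lost without any single sample of LGE or CGE. Kcnd2, which carries A-type current, rose by 0.21 ± 0.05 at the promoter and fell by 0.85 (SE 0.10) at other peaks. Kcnh1 had a promoter log2 fold change of 0.10 ± 0.05 (adjusted p 0.123).

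Of the 10 genes for calcium- or sodium-activated potassium channels, 6 rose and 1 fell. Kcnma1, the pore of the large-conductance BK channel, had 60.0 to 73.6 CPM in GABAergic-like and 32.0 to 42.6 CPM in progenitor-like nuclei, without overlap, and a log2 fold change of 0.85 ± 0.04. The other peaks of its beta subunit Kcnmb4 rose by 1.90 ± 0.13, from 5.56 ± 3.69 to 21.6 ± 14.6 CPM, with no such peak in LGE replicate 1. Kcnn2, highest per kilobase, rose by 0.22 ± 0.04.

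Inward rectifiers held the largest promoter changes in both directions, though Kcnj13 and Kcnj16 had few counts. Kcnj12 had 9.79 to 25.6 CPM in GABAergic-like and 3.78 to 8.32 CPM in progenitor-like nuclei, with a log2 fold change of 1.55 ± 0.13. Kcnj13 and Kcnj16 fell by 1.51 (SE 0.28) and 1.28 (SE 0.14), at 1.26 ± 0.362 and 2.46 ± 0.831 CPM against 4.19 ± 2.37 and 5.85 ± 1.62. The other peaks of Kcnj10, the glial rectifier, had 190 and 137 CPM in GABAergic-like nuclei of MGE, 317 and 239 in LGE, and 238 and 214 in CGE, against 470 to 604 CPM in progenitor-like nuclei, and fell by 1.39 (SE 0.13). Kcnj6 had a promoter log2 fold change of 0.24 ± 0.13 (adjusted p 0.127). In all, 2 of 12 inward rectifier promoters rose and 5 fell.

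For K2P channels 6 of 12 promoters rose and 2 fell. Kcnk15 rose by 1.08 ± 0.13, at 9.48 ± 1.97 against 4.45 ± 0.369 CPM. Kcnk5, an alkaline-activated leak channel, fell by 0.69 (SE 0.08) at its promoter and by 1.84 (SE 0.10) at other peaks, which had 17.0 to 36.8 CPM in GABAergic-like and 62.8 to 127 CPM in progenitor-like nuclei. The promoter of Kcnk2 had a log2 fold change of 0.06 ± 0.05, not called. Of 11 accessory promoters 4 rose and 4 fell, and Kcne2 was lowest, at -0.79 ± 0.26. The call on Kcne2 was lost without MGE replicate 2.

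Further genes with large folds were Kcnh6, Cacna2d4, Kcna6, Kcnc2, Kcnc4, Kcne1, Kcne4, Kcnv2 and Scn11a. At promoters Cacna2d4 fell by 0.83 (SE 0.15) and Kcnh6 by 0.62 (SE 0.18), at means of at most 4.51 CPM in either class. At other peaks Kcna6 rose by 2.19 ± 0.25, Scn9a by 1.75 ± 0.22, Kcnc2 by 1.25 ± 0.23 and Kcnc4 by 1.24 ± 0.18. Kcne4 fell by 2.00 (SE 0.36), Kcnv2 by 1.96 (SE 0.37), Scn11a by 1.74 (SE 0.08) and Kcne1 by 1.47 (SE 0.17). Of these, Kcna6 had no such peak in 3 of the 6 samples, and Kcne4 and Kcnv2 had means of at most 4.09 CPM in either class. Scn11a, a subunit of pain-sensing neurons, had 39.3 to 79.5 CPM in GABAergic-like and 114 to 281 CPM in progenitor-like nuclei.

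**Figure D2:**
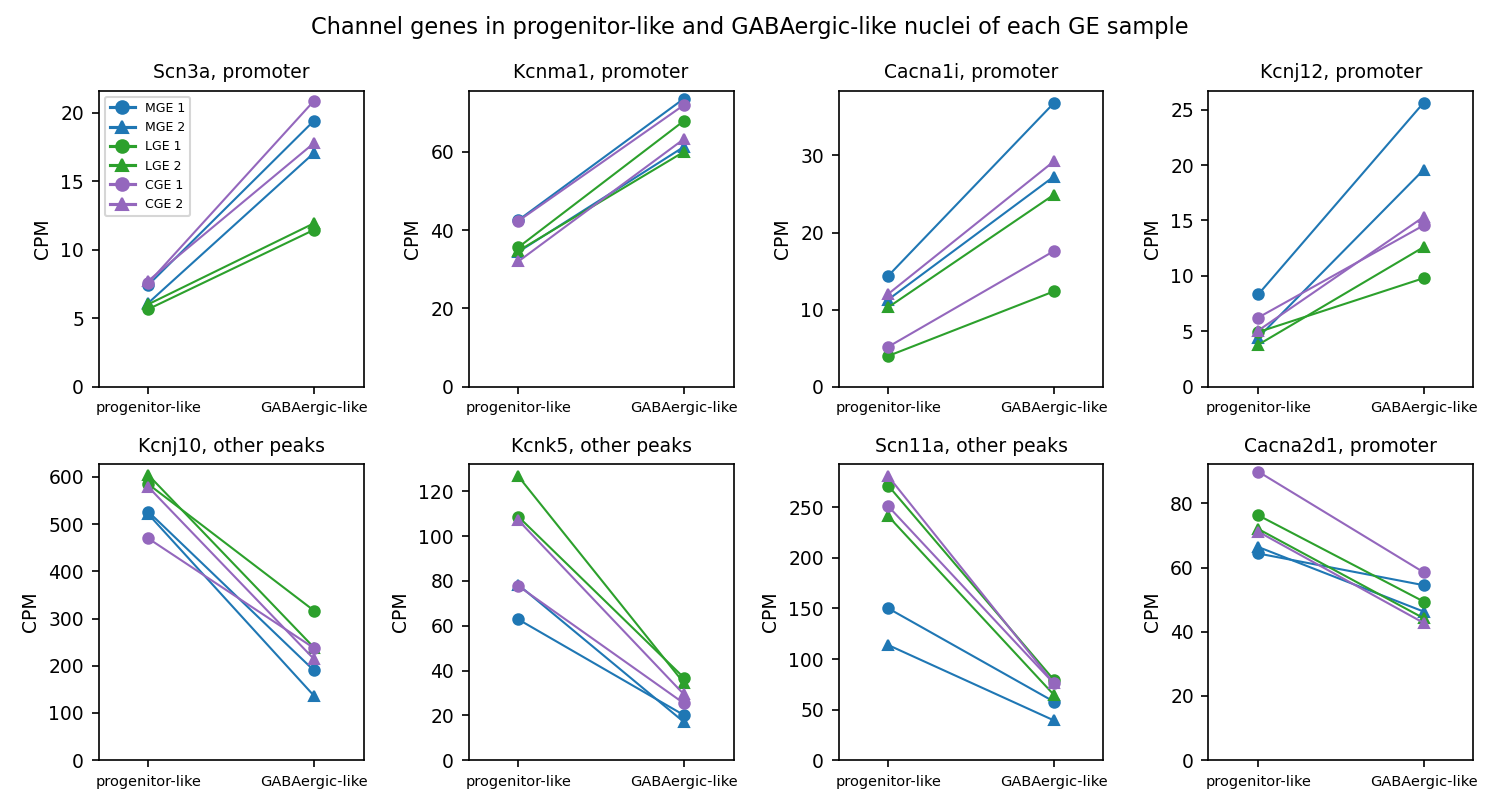
CPM in progenitor-like and GABAergic-like nuclei of each GE sample (lines join the classes of a sample, circles replicate 1, triangles replicate 2) for 8 channel genes, at promoters or at other peaks. The lines of Scn3a, Kcnma1, Cacna1i and Kcnj12 rise in all 6 samples, and those of Kcnj10, Kcnk5, Scn11a and Cacna2d1 fall in all 6.

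Genes of excitability outside the family gave a background for these values. Of 24 such partners, 12 rose and 6 fell at promoters, and 12 rose and 6 fell of 23 tested at other peaks. Of all genes 32.0% rose and 28.9% fell at promoters, and 24.7% rose and 25.7% fell at other peaks. Unc79, part of the sodium leak channel complex, rose by 0.79 ± 0.04 at its promoter and had a log2 fold change of -0.17 ± 0.11 at other peaks (adjusted p 0.207). Unc80, of the same complex, had -0.01 ± 0.06 at its promoter and fell by 1.40 (SE 0.10) at other peaks. Hcn4, a pacemaker channel, rose by 0.39 ± 0.08 at its promoter. Rest, which encodes the repressor that binds the RE1 element of neuronal genes, had 36.6 ± 3.36 CPM in GABAergic-like and 85.9 ± 8.27 CPM in progenitor-like nuclei, and fell by 1.23 (SE 0.06).

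The core of the RE1 element, the 15 bases in capitals below with any base at positions 8 and 9, was searched on both strands and found in 8 of 597 channel regions (1.34%), against 196 of 68274 regions (0.287%). The search was chosen after the data had been seen. Regions are peaks of the 8 samples merged where they overlap, and those counted here had a peak in all 8. At promoters 6 of 137 channel regions (4.38%) held it, against 93 of 15342 (0.606%), and in windows of 1000 bases around the part of each region shared by most samples it stood in 2 of 137 (1.46%) against 39 of 15342 (0.254%). The 6 genes with a match in a promoter region were Cacna1b, Kcnt1, Scn2a, Scn3b, Kcnh4 and Kcnk12. All 6 of these promoters rose in GABAergic-like nuclei, by 0.69 ± 0.05, 0.49 ± 0.06, 0.44 ± 0.05, 0.61 ± 0.06, 0.88 ± 0.05 and 0.52 ± 0.05 in that order. Among all channel promoters 45.8% were called higher, and among all promoters 32.0%. The share that rose among the 93 promoter regions with a match was not counted, so 6 of 6 cannot be read as a channel trait. The part of Rest in these rises was not tested. Cacna1h held a match away from its promoter, and its promoter had a log2 fold change of 0.07 ± 0.07 (adjusted p 0.338). Scn10a also held a match away from its promoter, in an intronic region 11822 bp from the nearest start site, while the regions of the other 7 genes overlapped exons. A match is a description of the letters and was not tested as a site. The matches are shown in capitals with 6 bases on either side, from GRCm38 and 5′ to 3′ on the strand of the match, since they let the promoters be compared base by base.
Cacna1b (chr2:24762079-24762105, plus strand): cgccgtCAGCACCACGGACAGctgcct
Kcnt1 (chr2:25864070-25864096, minus strand): gggactCAGCACCGCGGACAGctccgc
Scn2a (chr2:65619960-65619986, plus strand): ggctttCAGCACCACGGACAGcaccag
Scn3b (chr9:40269738-40269764, minus strand): ttggctCAGCACCACGGACAGtagcct
Scn10a (chr9:119706896-119706922, minus strand): gaggttCAGCACCACGGACAGagcaga
Kcnh4 (chr11:100759005-100759031, minus strand): gaagttCAGCACCCTGGACAGccgcac
Cacna1h (chr17:25400632-25400658, minus strand): ctgcttCAGCACCACGGACAGcgaccg
Kcnk12 (chr17:87798580-87798606, plus strand): cggcgtCAGCACCGCGGACAGcgcatc

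The comparison of CTX with GE asks which channel genes separate dorsal from ventral forebrain, and it rests on 2 CTX samples of unlike age and composition. At promoters 2 of 121 channel genes (1.65%) were called, both lower in CTX, against 1.02% of all genes (0.678% higher, 0.342% lower). Kcnh4, a Kv channel of the telencephalon, had 12.4 and 18.2 CPM in CTX, 46.3 and 39.1 in MGE, 33.1 and 30.6 in LGE, and 26.3 and 29.2 in CGE. Both CTX samples lay below every GE sample, with a log2 fold change of -1.16 ± 0.19 (SE, edgeR adjusted p 0.0416), of -1.40 among the replicate 1 samples and of -0.81 among the replicate 2 samples (log2 of CPM + 1). Kcna6, a delayed rectifier, had 27.9 and 26.3 CPM in CTX, 43.2 and 48.5 in MGE, 45.2 and 41.0 in LGE, and 55.4 and 46.0 in CGE, a log2 fold change of -0.80 ± 0.13 (adjusted p 0.0380), and -0.75 in both replicate sets. Kcnh2 and Kcnf1 stood just outside the threshold, both lower in CTX, with log2 fold changes of -0.71 ± 0.13 (adjusted p 0.0595) and -0.64 ± 0.13 (0.0752). The call on Kcna6 was lost when any of the 8 samples was left out, and that on Kcnh4 in 7 of 8 cases and with the replicate number as a block (adjusted p 0.0546). In progenitor-like and GABAergic-like nuclei of GE, Kcnh4 had 26.1 and 47.8 CPM and Kcna6 41.2 and 54.8 CPM.

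The remaining channel promoters did not pass this test. Scn2a had 59.4 and 37.5 CPM in CTX and 23.2 to 52.1 in GE, and Scn3a had 12.9 and 4.15 CPM in CTX and 8.44 to 14.3 in GE. The CTX samples lay on opposite sides of GE in Cacna1c, with 165 CPM for replicate 1 and 59.2 CPM for replicate 2, against 65.8 to 77.1 in GE. Its log2 difference was 1.11 among replicate 1 samples and -0.21 among replicate 2 samples. The promoter peaks of Cacna1c covered 3.52 to 13.0 kb, however. Per kilobase both CTX samples lay below every GE sample, at 12.6 and 8.55 CPM per kb against 14.6 to 21.9. Kcnj6 had 31.0 and 9.97 CPM in CTX and 20.2 to 46.5 in GE. The log2 difference at the promoters of Cacna1d, Cacna2d1, Kcnh1, Kcnj6, Kcnn2, Kcnq3, Scn3a, Scn3b and Scn8a also changed sign between the replicate sets.

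Outside promoters 8 of 119 channel genes (6.72%) were called, 3 (2.52%) higher in CTX and 5 (4.20%) lower, against 4.10% of all genes (2.83% higher, 1.28% lower). Higher in CTX was Kcnk13, a K2P channel best known from microglia, with 110 and 80.9 CPM in CTX and 13.6 to 18.4 CPM in GE (log2 fold change 2.62 ± 0.21, adjusted p 0.0199). The microglial markers summed to 14.6 and 8.24 CPM at CTX promoters and to 20.1 to 40.7 CPM in GE, and at other peaks, the kind called for Kcnk13, to 535.7 and 482.4 CPM in CTX and 400.2 to 496.7 CPM in GE. Their part in the Kcnk13 difference was not tested. Kcnh1 had 271 and 351 CPM in CTX and 105 to 149 in GE (1.35 ± 0.17, adjusted p 0.0240). Kcne4, an accessory subunit, had 44.5 and 24.5 CPM in CTX, 6.31 and 7.36 in MGE, 3.47 and 1.05 in CGE, and no such peak in LGE (adjusted p 0.0240).

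Lower in CTX outside promoters were Kcnmb2, Cacng1, Cacna2d4, Scn3a and Cacna1b. Kcnmb2, a beta subunit of the BK channel, had 55.9 and 69.4 CPM in CTX and 163 to 220 in GE, and fell by 1.65 (SE 0.17, adjusted p 0.0225). Scn3a had 28.6 and 21.8 CPM in CTX, 49.0 and 88.7 in MGE, 107 and 86.5 in LGE, and 94.4 and 105 in CGE, and fell by 1.79 (SE 0.30, adjusted p 0.0383). Cacna1b fell by 1.13 (SE 0.20), Cacng1 by 1.78 and Cacna2d4 by 0.96. Among replicate 1 and replicate 2 samples taken apart, the log2 difference was 2.86 and 2.21 for Kcnk13, 1.24 and 1.44 for Kcnh1, -1.76 and -1.53 for Kcnmb2, and -1.44 and -2.04 for Scn3a. Each of the 8 calls was lost in at least 4 of the 8 fits that left out 1 sample. All 8 were lost with the replicate number as a block (adjusted p 0.0579 to 0.0869), where 1 of 13304 genes was called. In all 8 genes both CTX samples lay beyond every GE sample, as they did in 95.1% of all genes called, and sums over peaks grow with the length called as peak, which ran from 0.81 to 6.97 kb for Kcnk13 and from 4.96 to 23.3 kb for Kcnh1. With an offset for that length the log2 fold change was 1.15 for Kcnk13, -0.93 for Kcnmb2 and -1.05 for Scn3a, all still called. It was 0.75 for Kcnh1, -0.58 for Cacng1, -0.08 for Cacna2d4 and -0.35 for Cacna1b, whose calls were lost, while Kcne4, with no such peak in LGE, could not be fitted, and up to 72.7% of the counts of Cacna2d4 lay in peaks shared with other genes. With scaling over all gene peaks the median log2 fold change of all genes outside promoters moved from 0.19 to 0.48 and that of channel genes from 0.22 to 0.50. In that fit 5 channel genes were called higher and 2 lower, and of all genes 5.33% were called higher and 0.857% lower. The median of channel genes was 0.04 without CTX replicate 1 and 0.04 with peaks of 1 gene only, where that of all genes was 0.07 and 0.19.

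**Figure D3:**
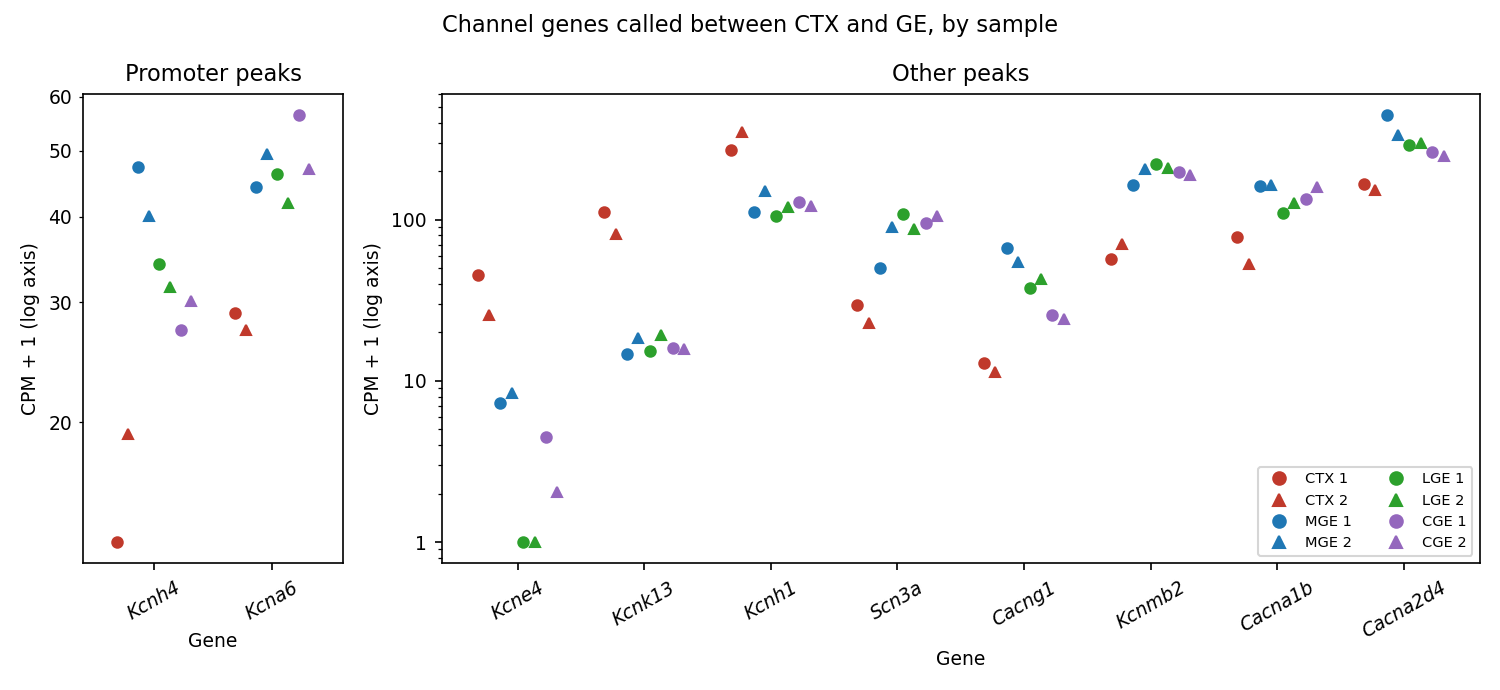
CPM + 1 of the 10 channel genes called between CTX and GE, by sample, at promoters (left) and other peaks (right), on log axes. Red CTX points lie apart from the GE points in each gene: below them for Kcnh4, Kcna6, Scn3a, Cacng1, Kcnmb2, Cacna1b and Cacna2d4, and above them for Kcne4, Kcnk13 and Kcnh1.

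CTX and GE were also compared region by region. Of 597 regions over channel genes with a peak in all 8 samples, 107 (17.9%) were called, 55 (9.21%) higher in CTX and 52 (8.71%) lower, against 14.9% of all regions (9.49% higher, 5.39% lower). Regions at the promoter of any gene made up 25.1% of the 597 and 11.2% of the 107, against 22.5% of all regions and 6.42% of all those called. The groups did not overlap in 91 of the 107 (85.0%), against 89.1% of all called regions. With the covered-length offset 62 of the 107 (57.9%) were also called, against 62.5% of all called regions. In that fit 12.2% of channel regions were called, against 11.4% of all regions. Kcnn3 had 21 regions, of which 5 were higher in CTX and 0 lower, Cacna2d3 had 27 with 4 higher and 2 lower, and none of the 17 regions of Scn8a was called.

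The largest folds higher in CTX lay in introns of Kcnn3 and Cacna2d2. Kcnn3, a small-conductance calcium-activated channel, had 17.0 and 4.63 CPM in CTX and 0.291 to 1.24 CPM in GE at chr3:89534176-89535695, 14012 bp from the nearest start site (log2 fold change 3.93 ± 0.49, adjusted p 0.00461). A further intronic region of Kcnn3 at chr3:89590159-89593223 had 17.6 and 3.89 CPM in CTX and 0.376 to 1.86 in GE (3.27 ± 0.58). The call on this further region was lost without MGE replicate 1 or CGE replicate 2 (adjusted p up to 0.0535). In both Kcnn3 regions CTX replicate 1 was the higher CTX sample, and the log2 difference from GE was 4.32 and 4.27 among replicate 1 samples and 2.68 and 1.43 among replicate 2 samples. An intronic region of Cacna2d2, another alpha2delta subunit, at chr9:107419142-107421527 had 15.02 and 17.49 CPM in CTX and 0.755 to 2.63 in GE (3.46 ± 0.24), so the CTX samples were alike. Lower in CTX was an intronic region of Kcnmb2 at chr3:32066497-32068142, with 3.32 and 3.24 CPM in CTX and 18.8 to 33.4 in GE, and a log2 fold change of -3.00 ± 0.18 (adjusted p 0.00222). Intronic regions of Kcnq1 at chr7:143178142-143179381 and of Kcnh8 at chr17:52870112-52871124 had log2 fold changes of -3.05 ± 0.45 and -2.56 ± 0.33. The offset for covered length lowered these folds, to 2.01, 0.88 and 1.64 for the higher regions and to -2.31 for Kcnmb2 and -1.28 for Kcnh8, and the call on the Kcnq1 region was lost (adjusted p 0.0972).

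The 200 bases of GRCm38 at the part of the region shared by most samples are shown for the Cacna2d2 region, the highest in CTX with alike samples, and for the Kcnmb2 region, its counterpart in GE. Letters are those of the plus strand, and capitals mark the E-boxes CAGCTG and CAGATG and the homeodomain core TAATTA on either strand.
Cacna2d2 (chr9:107421033-107421232): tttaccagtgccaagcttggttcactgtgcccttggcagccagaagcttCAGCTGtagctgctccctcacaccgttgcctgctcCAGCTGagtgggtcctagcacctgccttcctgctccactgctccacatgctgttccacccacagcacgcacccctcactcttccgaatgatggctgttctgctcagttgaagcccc
Kcnmb2 (chr3:32067278-32067477): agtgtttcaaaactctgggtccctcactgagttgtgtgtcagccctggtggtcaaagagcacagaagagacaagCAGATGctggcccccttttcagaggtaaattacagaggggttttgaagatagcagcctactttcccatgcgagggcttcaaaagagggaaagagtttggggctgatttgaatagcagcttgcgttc
The Cacna2d2 stretch holds CAGCTG at 2 places and the Kcnmb2 stretch holds CAGATG once. In windows of 300 bases TAATTA stood in 8 of 55 channel regions higher in CTX and in 10 of 52 lower (19.2%), against 10.6% of all regions and 13.0% of regions outside promoters. CAGATG stood in 21.8% and 23.1%, against 22.5% of all regions and 25.7% of regions outside promoters. CAGCTG stood in 29.1% and 30.8%, against 23.5% and 25.2%. Over all channel regions the shares were 9.88% for TAATTA, 22.3% for CAGATG and 23.1% for CAGCTG.

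**Figure D4:**
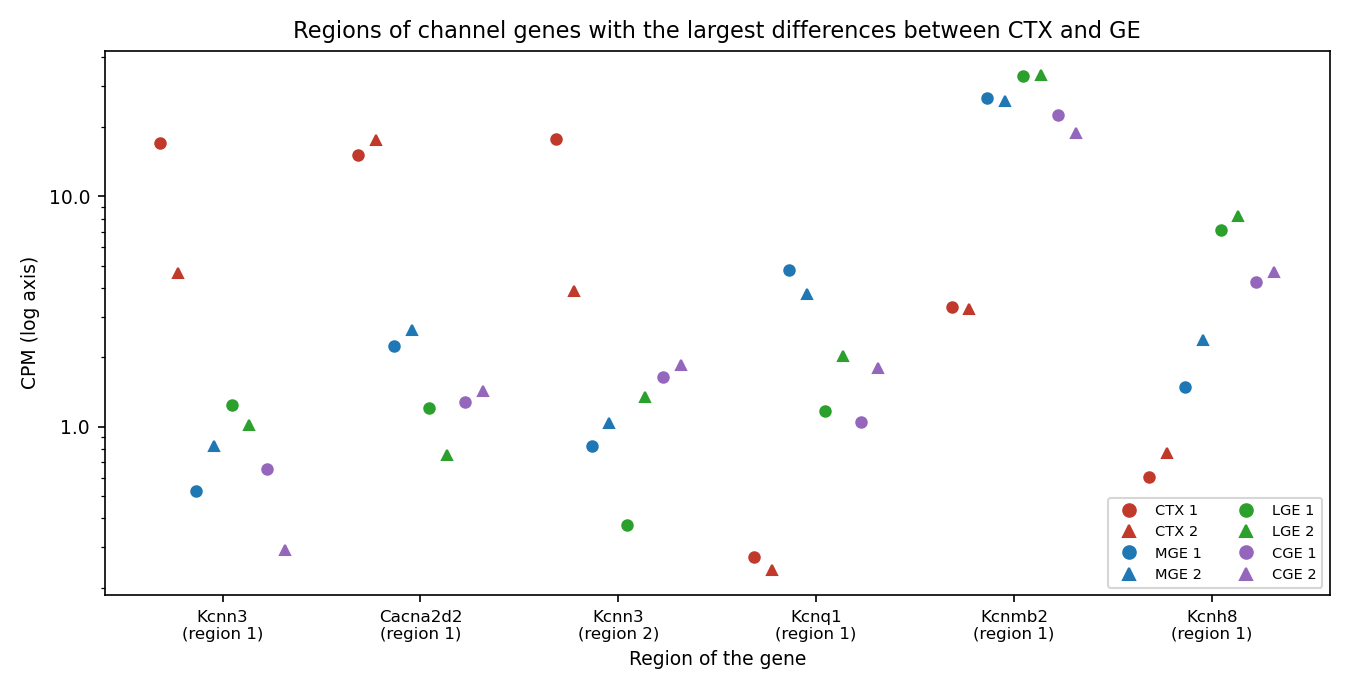
CPM by sample, on a log axis, of the 6 channel gene regions with the largest folds between CTX and GE whose groups do not overlap. CTX points lie above GE in the Kcnn3 and Cacna2d2 regions and below in the Kcnq1, Kcnmb2 and Kcnh8 regions, and in the Kcnn3 regions CTX replicate 2 (red triangle) lies between CTX replicate 1 and GE.

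Among MGE, LGE and CGE no channel gene was called as a whole. edgeR called 0 of 119 promoters and 0 of 115 genes outside promoters, where 0.0578% and 0.216% of all genes were called. At an unadjusted p under 0.05 there were 13 promoters (10.9%), against 5.11% of all, and 15 genes outside promoters (13.0%), against 13.2% of all. At promoters the shares were 5.31% against 4.10% with the covered-length offset. They were 4.96% against 3.41% in a fit of all 8 samples. Without MGE replicate 2 the promoters were 17 (14.2%), against 12.6% of all. Outside promoters the 15 became 42 without MGE replicate 2 and 23 without MGE replicate 1, and 6, 4 and 8 without LGE replicate 1, CGE replicate 1 and CGE replicate 2, where the shares of all genes were 29.0%, 15.9%, 7.53%, 7.60% and 7.58% respectively. With DESeq2 the calls numbered 5 (4.20%) and 19 (16.5%), against 2.10% and 12.1% of all. Single regions did differ: 74 of 597 channel regions (12.4%) were called, against 10.9% of all regions. Of the 74, 41 (55.4%) were highest in MGE, 13 (17.6%) in LGE and the other 20 in CGE, where 40.5%, 28.6% and 30.9% of all called regions were. At the promoter of a channel gene lay 2 of the 74, and 137 of the 597. The eminences also differed in the share of glutamatergic-like nuclei, which was 0.16% and 1.67% in MGE, 13.61% and 10.42% in LGE, and 20.96% and 25.87% in CGE, and its part in these calls was not tested. With the covered-length offset 49 of the 74 (66.2%) were also called, against 63.1% of all called regions. Cacna2d1 had the most, 9 of its 18 regions, followed by Kcnip1 with 7 of 25.

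An intronic region of Kcnq1, a Kv channel of heart and inner ear, at chr7:143340218-143342007 had 7.68 and 8.32 CPM in MGE, 30.7 and 38.1 in LGE, and 20.2 and 22.0 in CGE (edgeR F test, adjusted p 0.00330). Its level in CTX was 23.4 and 49.2 CPM. An intronic region of Cacna1c at chr6:118983787-118985198 had 14.6 and 14.8 CPM in MGE, 3.60 and 3.17 in LGE, and 4.46 and 3.34 in CGE (adjusted p 0.00387). An intronic region of Cacna2d3 at chr14:29519773-29521429 was highest in MGE as well, with 10.5 and 12.1 CPM, against 2.58 and 2.57 in LGE and 5.82 and 5.98 in CGE (adjusted p 0.00426). A region of Kcnma1 at chr14:23385640-23387430 that overlaps an exon had 4.75 and 5.21 CPM in MGE, 17.9 and 19.7 in LGE, and 14.54 and 17.88 in CGE (adjusted p 0.00428). An intronic region of Cacng2 at chr15:78081408-78083890 was nearly closed in MGE, with 0.240 and 0.130 CPM against 3.15 to 5.24 in LGE and CGE. That region was covered by 89 and 88 bp of peak in MGE and its call was lost with the covered-length offset (adjusted p 0.0878), while the other 4 regions kept theirs. In an edgeR fit of all 8 samples, which called 70 of 68274 regions, 0 of the 597 channel regions were called (88 had an unadjusted p under 0.05), and all 5 of these calls were lost.

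The eminences were also compared within a class of nuclei, a setting added after the data had been seen. Within progenitor-like nuclei 75 of 597 channel regions were called, against 11.5% of all regions, and within GABAergic-like nuclei 63, against 9.05%. The nuclei are in part the same as in the whole samples. Of the 74 regions called there, 55 (74.3%) were among the 75, which is 73.3% of those, and 46 (62.2%) were among the 63, which is 73.0% of those. Over all regions called in the whole samples these shares were 76.4% within progenitor-like and 50.5% within GABAergic-like nuclei, or 72.1% and 60.7% of those called within the class. The Cacna1c region stood out in progenitor-like nuclei, with 20.4 and 22.7 CPM in MGE against 3.08 to 5.59 in LGE and CGE (adjusted p 0.00126). In GABAergic-like nuclei it had 7.06 and 5.54 CPM in MGE and 2.05 to 4.17 elsewhere, and was not called (adjusted p 0.194). In the Kcnma1 region, GABAergic-like nuclei had 7.41 and 8.51 CPM in MGE, 42.0 and 50.6 in LGE, and 30.4 and 36.5 in CGE (adjusted p 0.000918), and progenitor-like nuclei had 2.78 to 3.18 in MGE and 8.26 to 8.97 in LGE and CGE. The Cacna2d3 region had 19.7 and 22.3 CPM in GABAergic-like nuclei of MGE, 4.41 and 4.53 in LGE, and 10.4 and 10.9 in CGE. The difference between classes in these regional patterns was not tested. Different clusters made up the classes: cluster 1 held most progenitor-like nuclei of MGE and clusters 2 and 3 those of LGE and CGE, with cluster 3 mostly from replicate 1 and cluster 2 mostly from replicate 2, and cluster 0 held most GABAergic-like nuclei of MGE and clusters 5 and 8 those of LGE and CGE.

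**Figure D5:**
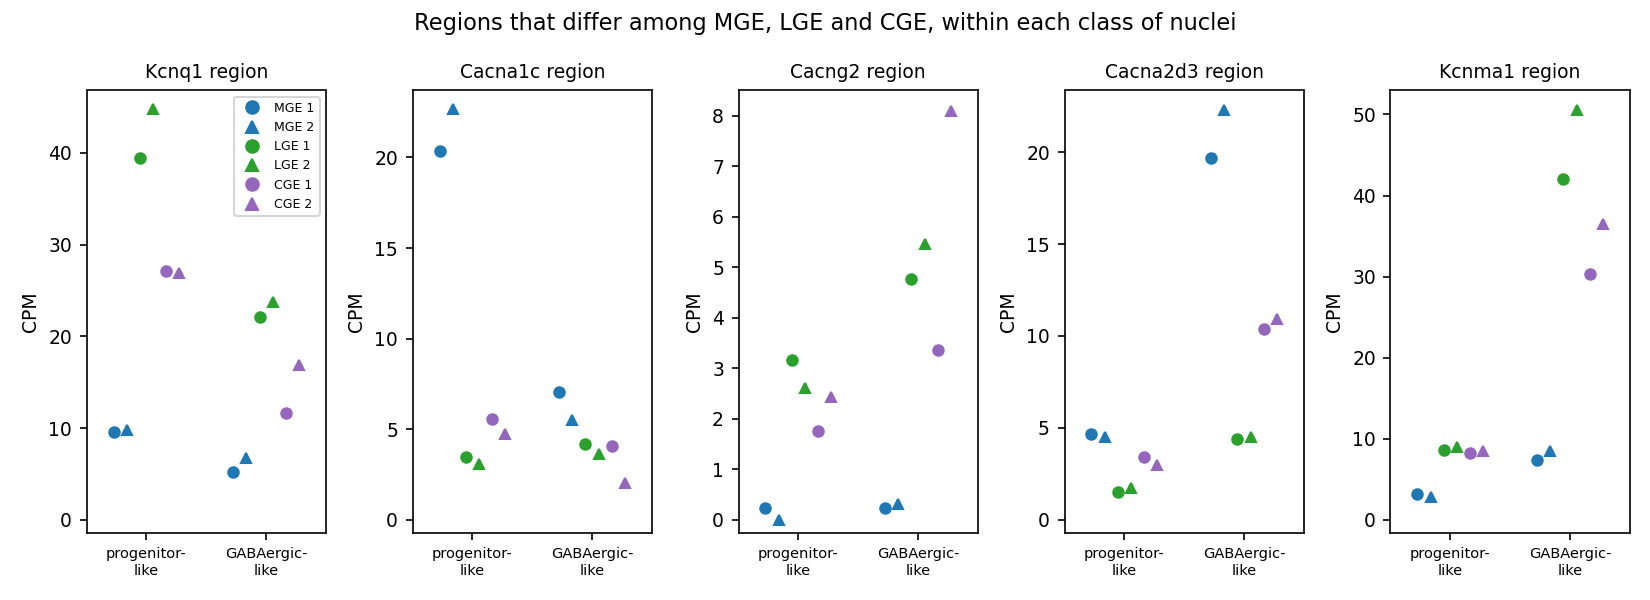
CPM of 5 channel gene regions in progenitor-like and GABAergic-like nuclei of each GE sample (circles replicate 1, triangles replicate 2). MGE (blue) is highest in the Cacna1c and Cacna2d3 regions and lowest in the Kcnq1, Cacng2 and Kcnma1 regions, and the Cacna1c gap is widest in progenitor-like nuclei, at 20.4 and 22.7 CPM in MGE.

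The stretches of 200 bases shared by most samples are given for the intronic regions of Cacna1c and Cacna2d3, highest in MGE, and of Kcnq1, highest in LGE among the eminences, with letters and capitals as above.
Cacna1c (chr6:118984506-118984705): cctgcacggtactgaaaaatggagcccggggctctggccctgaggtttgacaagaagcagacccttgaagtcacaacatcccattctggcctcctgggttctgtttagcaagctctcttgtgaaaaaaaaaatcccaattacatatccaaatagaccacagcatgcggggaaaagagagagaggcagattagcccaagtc
Cacna2d3 (chr14:29520273-29520472): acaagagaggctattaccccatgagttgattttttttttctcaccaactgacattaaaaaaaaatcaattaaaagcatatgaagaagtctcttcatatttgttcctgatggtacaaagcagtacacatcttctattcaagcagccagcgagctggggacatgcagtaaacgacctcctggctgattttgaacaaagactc
Kcnq1 (chr7:143340792-143340991): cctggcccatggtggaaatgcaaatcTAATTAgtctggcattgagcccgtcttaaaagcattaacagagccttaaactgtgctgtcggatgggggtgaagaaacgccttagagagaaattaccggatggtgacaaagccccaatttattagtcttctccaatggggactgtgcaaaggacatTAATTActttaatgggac
The Kcnq1 stretch holds TAATTA at 2 places, and the other stretches hold none of the 3 motifs. TAATTA stood in 4 of 41 called regions highest in MGE (9.76%), in 3 of 13 highest in LGE (23.1%) and in 3 of 20 highest in CGE, and CAGCTG in 34.1%, 7.69% and 10.0% of them. Of all regions outside promoters 13.0% held TAATTA and 25.2% held CAGCTG. These counts are small, and all regions are described here without a test of the motifs.

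The counts of calls rested on single libraries in the comparisons of genes and regions, not in that of classes. For promoters between CTX and GE, 2 became 0 without MGE replicate 1, MGE replicate 2, CGE replicate 1 or CGE replicate 2, 1 without LGE replicate 2 and 4 without CTX replicate 2. For other peaks, 8 became 0 without any single sample of LGE or CGE, 13 without CTX replicate 1, 17 without CTX replicate 2 and 14 without MGE replicate 2. Regions called between CTX and GE went from 107 to 42 without CGE replicate 2, to 57 to 60 without MGE replicate 1, LGE replicate 1, LGE replicate 2 or CGE replicate 1, to 69 without MGE replicate 2, and to 179 and 186 without CTX replicate 1 and CTX replicate 2. Regions called among the eminences went from 74 to 32 without CGE replicate 2 and to 40 without MGE replicate 1 or CGE replicate 1. Calls over all features moved as well in these fits, from 161 to between 46 and 336 at promoters and from 546 to between 1 and 1262 outside them, and over all regions from 10160 to between 4274 and 17986 between CTX and GE and from 7423 to between 3622 and 8645 among the eminences.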

How the data were processed

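Single-nucleus ATAC-seq libraries of 8 samples were analysed from count matrices that the authors deposited, with peaks called and nuclei selected in each sample by Cell Ranger ATAC 1.2.0 on GRCm38 (mm10), per the labels. Values are raw counts of cut sites per peak and nucleus, not normalized. Deposited motif count files were not used. The channel genes, gene lists and tests were chosen with earlier results of these data known.

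Peaks were assigned to GENCODE M21 protein-coding genes when they overlapped the body or 2000 bp upstream. Peaks within 1000 bp of a start site (alternative 500 bp) counted as promoter peaks, and counts were summed per gene and sample. Peaks of all samples were merged into regions, and those with a peak in all 8 samples were tested. Since peaks differ between samples, the length covered by peaks was used as an offset in an alternative. Nuclei were clustered (TF-IDF, 30 components, 20 neighbours, Leiden resolution 0.5, alternative 1.0) on 67677 shared regions away from channel genes. Clusters were named by fixed marker lists. Counts of GABAergic-like and progenitor-like nuclei were summed per GE sample.

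Counts were tested with edgeR 4.0.16 (R 4.3.3; TMM, filterByExpr, quasi-likelihood F test), with Benjamini-Hochberg adjustment over all features and a threshold of 0.05, and with DESeq2 1.42.0 as an alternative. The tests were checked on simulated data. Genes named in the text were taken from 25 fixed channel genes, up to 6 called genes with the largest folds in each direction, and for regions 3 in each direction, or 5 by lowest p among eminences, whose groups did not overlap. Some of these genes are not reported here. Precision is limited by 2 samples per region. Clustering used scikit-learn 1.9.0 and leidenalg 0.10.2 in Python 3.11.15.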

Additional observations from a re-analysis of the deposited data

Results flagged for a closer look

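In 8 of 118 sets of 6 GE samples, 1 sample lay apart from the other 5 by a gap over 0.625 of the whole range, a limit that chance passes in about 1 of 20 sets. MGE replicate 1 was the highest sample at the promoters of Scn8a (96.02 CPM) and Cacna1g (144.1 CPM) and at other peaks of Cacna1a (495.3 CPM). It was the lowest at other peaks of Scn3a (48.96 CPM). CGE replicate 2 was the highest at the promoter of Cacng2 (55.29 CPM) and at other peaks of Scn3b (1.458 CPM). These sums grow with covered length. Per kilobase CGE replicate 2 was the lowest of the 8 samples for Cacng2, at 12.4 CPM per kb against 25.6 to 40.4. MGE replicate 1 stayed the highest GE sample for Cacna1g (17.4 CPM per kb). LGE replicate 1 exceeded it for Scn8a (19.6 against 13.8) and Cacna1a (24.6 against 23.3). MGE replicate 2 lay below it for Scn3a (13.1 against 14.8). In the difference between GABAergic-like and progenitor-like nuclei at other peaks, LGE replicate 2 was the lowest for Scn1a, with a log2 difference of -1.138, and LGE replicate 1 was the lowest for Kcnmb4, with 0.0, having no such peak.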

How the results depend on the processing

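No named gene changed the sign of a called value under the settings run, but splits and medians moved. Between CTX and GE, the channel promoters called went from 0 higher and 2 lower to 1 higher and 0 lower without LGE replicate 2, and their median log2 fold change went from -0.06 to 0.10 without CTX replicate 2 and to -0.30 without CTX replicate 1. Other peaks went from 3 higher and 5 lower to 5 higher and 2 lower with scaling over all gene peaks. All genes went there from 2.83% higher and 1.28% lower to 5.33% and 0.857%. Channel promoters called between CTX and GE were 2 in the reported test, 17 with DESeq2, 1 with the replicate block, 1 with the covered-length offset, 1 with scaling over all gene peaks, 0 with peaks of 1 gene only, and 0 to 4 when 1 sample was left out. Calls over all promoters moved from 1.02% to 7.19% with DESeq2, 1.17% with the block, 0.344% with the offset, 0.817% with that scaling and 0.637% with peaks of 1 gene only. Among the eminences promoters numbered 0, with 5 by DESeq2 and 0 to 2 without 1 sample. Outside promoters the count between CTX and GE was 8, with 24 by DESeq2, 0 with the replicate block and 13 in shared regions. Among the eminences it was 0, with 19 by DESeq2. Both counts moved in fits without 1 sample, as did the calls over all genes. Of all genes outside promoters 4.10% were called between CTX and GE, with 18.7% by DESeq2, 1 of 13304 with the block and 7.23% in shared regions. By DESeq2 2.10% of all promoters and 12.1% of all genes outside them were called among the eminences. Regions called between CTX and GE numbered 107, with 162 by DESeq2, 94 with the replicate block and 42 to 186 without 1 sample. Among the eminences they numbered 74, with 135 by DESeq2, 66 with the replicate block, 0 in a fit of all 8 samples and 32 to 82 without 1 sample. Over all regions DESeq2 called 23.1% in place of 14.9% and 20.5% in place of 10.9%, and the fits with the replicate block called 13.7% and 10.3%. Between classes the count fell from 79 to 41 at promoters and from 63 to 29 outside them with no replicate block, meaning without the sample as a block (over all genes from 60.9% to 25.4% and from 50.4% to 18.7%). Without 1 sample it was 78 to 80 and 59 to 62, and the shares over all genes were 56.1% to 60.0% and 45.6% to 48.5%. The cause of these changes was not tested. Samples with the same replicate number correlated at -0.03 to 0.49 in their deviations from the group means, highest between LGE and CGE. The labels do not say that a number marks a shared batch, and the reported test did not use the numbers. The numbers did track the share of odd entries, so fits with the replicate block are given as well. Of the values for single named genes and regions under other settings, 1590 kept direction and side of the threshold, 120 fell short of it and 30 newly passed it. The 1590 include values not called in the reported test, which cannot fall short. Under the settings that kept all samples, called genes between CTX and GE kept the call in 49 values and lost it in 21. For called genes between classes these numbers were 224 and 28, and for named regions 31 and 7. Depth limits genes with few counts, such as Scn10a at its promoter.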
